A study of Mus musculus with 6 samples.

Results

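The transcripts examined here are those of the light-strand promoter of mouse mitochondrial DNA (mtDNA): the messenger RNA mt-Nd6 and the tRNAs mt-Tp, mt-Te, mt-Ts1, mt-Tc and mt-Tn. They were chosen by strand, as mtDNA genes annotated on the strand of mt-Nd6 that had at least 1 count in any library, which gave 6 genes of 39177 in the count tables. The annotation places 9 genes on this strand, and the other 3 (mt-Ty, mt-Ta and mt-Tq) had 0 counts in all 6 libraries. mt-Te, with 1 count in all, was the member nearest to that limit. RNA of crude heart mitochondria was sequenced in 3 libraries of Polrmt knockout mice and 3 of control mice, all C57BL/6N animals of 3 to 4 weeks. The knockouts (L/L, cre; genotype given as Polrmt -/-) carried loxP sites around exon 3 of Polrmt and a cre gene driven by the promoter of muscle creatine kinase. The controls (L/L; genotype given as Polrmt +/+) had the same loxP-flanked alleles and no cre. This cre acts in heart and skeletal muscle cells, so other cells of the heart are not targeted. The labels do not say whether replicates are separate animals, so p-values measure the spread between these libraries, which may be technical.

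Polrmt encodes the RNA polymerase of mitochondria. It starts on both strands of mtDNA within the control region and makes long transcripts, from which tRNAs are cut out so that the mRNAs between them are freed. Most mRNAs, the rRNAs and the larger share of the tRNAs come from the heavy-strand promoter. The light-strand promoter serves a single mRNA and a small set of tRNAs spaced far apart, and most of the remaining RNA from it has no coding role and is degraded. Short transcripts from the same promoter prime the replication of mtDNA, and the series' title sets that priming beside the expression of genes.

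The promoter lies in the control region beyond mt-Tp, so distances were measured along the transcript from the edge of mt-Tp that faces it. mt-Tp (chrM:15356-15422, minus strand, GRCm38) comes first, and mt-Te (chrM:14071-14139) begins 1283 bases farther on and directly adjoins mt-Nd6 (chrM:13552-14070), which begins at 1352 bases. mt-Ts1 (chrM:6870-6938) begins at 8484 bases. The cluster of mt-Ty (chrM:5260-5326), mt-Tc (chrM:5192-5257), mt-Tn (chrM:5089-5159) and mt-Ta (chrM:5018-5086) begins between 10096 and 10336 bases, and mt-Tq (chrM:3772-3842) at 11580 bases. The 5 tRNAs with counts are shown because their length, their place and the amino acid they carry define what each row counts. They are written 5′ to 3′ from the GENCODE M21 transcripts (GRCm38, minus strand), with the anticodon in capitals. The anticodon was found as the middle of a 7-base loop on a 5-base stem and checked against the mitochondrial genetic code.
mt-Tp: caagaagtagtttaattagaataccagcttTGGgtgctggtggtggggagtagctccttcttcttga
mt-Te: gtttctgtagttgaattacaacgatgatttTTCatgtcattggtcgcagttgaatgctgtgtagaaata
mt-Ts1: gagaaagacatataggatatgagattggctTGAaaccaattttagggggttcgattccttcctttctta
mt-Tc: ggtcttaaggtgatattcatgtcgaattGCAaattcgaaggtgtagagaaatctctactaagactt
mt-Tn: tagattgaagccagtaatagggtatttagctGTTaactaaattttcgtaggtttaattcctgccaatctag

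These tRNAs carry proline (mt-Tp), glutamate (mt-Te), serine for the codon family read by TGA (mt-Ts1), cysteine (mt-Tc) and asparagine (mt-Tn). In the 13 mtDNA mRNAs they serve 196 proline, 91 glutamate, 240 serine, 28 cysteine and 168 asparagine codons. mt-Nd6 encodes a subunit of the membrane arm of respiratory complex I. Its gene spans 519 bases, and the last 240 of the transcript (chrM:13552-13791, minus strand, GRCm38) are shown to mark where the strands share sequence: the 14 bases in capitals lie opposite the end of mt-Nd5. The reading frame gives 172 residues and closes with a complete stop codon.
mt-Nd6: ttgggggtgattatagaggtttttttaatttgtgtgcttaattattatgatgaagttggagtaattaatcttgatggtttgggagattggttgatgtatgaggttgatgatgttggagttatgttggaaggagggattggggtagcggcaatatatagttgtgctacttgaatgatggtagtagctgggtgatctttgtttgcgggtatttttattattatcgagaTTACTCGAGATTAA

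The strand of origin is visible in the base composition of the mRNAs and of the pooled tRNA genes, but not of every tRNA. mt-Nd6 held 28.1% G and 5.97% C, a ratio of G to C of 4.71, whereas the ratio was 0.441 in the heavy-strand mRNAs together. The 8 light-strand tRNA genes together held 22.8% G and 13.7% C, against 15.3% G and 17.5% C in the 14 heavy-strand tRNA genes. Each of mt-Nd6, mt-Tp, mt-Te, mt-Ts1, mt-Tc and mt-Tn had more G than C.

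Gene-assigned totals lay between 1062030 and 1227997 counts in knockout libraries and between 2867067 and 3234729 in control libraries. Counts of mtDNA genes made up 21.1% to 25.8% of the knockout totals and 79.5% to 83.5% of the control totals. Polrmt itself had 2, 5 and 1 counts in knockouts and 3, 2 and 1 counts in controls, and gene counts include the exons that remain, so they check neither the deletion nor the labels. All 6 cardiomyocyte markers had counts in every library, with summed levels of 3635 to 4021 CPM in knockouts and 3996 to 4873 CPM in controls (CPM with TMM scaling, a scale set by the bulk of nuclear transcripts). The sums of the other lists, blood excepted, did not overlap between the groups. Single genes did not overlap in 29.3% of all 3363 tested, but no such share is given for sums of several genes. Whether the mix of cell types differed was not tested. The 5 fibroblast markers summed to 472 to 539 CPM in knockouts and 575 to 589 CPM in controls. For the 4 endothelial markers the sum was 63.8 to 80.4 CPM in knockouts and 81.9 to 101 CPM in controls. Smooth muscle and pericyte markers summed to 52.6 to 79.5 CPM in knockouts and 89.9 to 104 CPM in controls. The skeletal muscle list summed to 166 to 195 CPM in knockouts and 78.3 to 93.5 CPM in controls. Its member Myh4 was at 0 in every library, so this is the sum of Acta1 and Ckm. Ckm is the gene of muscle creatine kinase, whose promoter acts in heart cells too, so the sum does not single out skeletal muscle cells. The 3 blood markers overlapped between the groups. The part of these cells in the results below was not tested.

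mt-Nd6 was lower in knockouts relative to nuclear transcripts, by a few-fold, and far higher relative to the other mtDNA mRNAs. It had 670, 584 and 1008 counts in the knockout libraries, against 1177, 1289 and 1134 counts in the control libraries. On the nuclear scale this was 329, 257 and 390 CPM in knockouts and 1000.3, 801 and 703 CPM in controls. Every knockout library lay below every control library, and knockout 3 was the highest of the knockouts in both units. The mean was 325 ± 66.6 CPM in knockouts and 835 ± 151 CPM in controls (SD, n = 3 each), a 2.56-fold fall (log2 fold change -1.36 ± 0.15 SE). The adjusted p in edgeR's quasi-likelihood test was 1.09e-13. Of all 3363 genes tested, 6.78% were called lower, and the groups did not overlap in 29.3%. In bulk RNA of a mitochondrial preparation, fewer mitochondria or muscle cells and less RNA in each cannot be told apart. The nuclear scale also depends on how much nuclear-encoded RNA each preparation of crude mitochondria carried, which was not measured.

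The fall of mt-Nd6 depended on what it was measured against. The 10 heavy-strand mRNA rows fell between 30.1-fold and 41.7-fold on the nuclear scale, with a median log2 fold change of -5.01 beside 0.00245 over all tested genes. With no scaling beyond the library total, which shifts the median of all tested genes by 2.08 on the log2 scale, mt-Nd6 had a log2 fold change of 0.77 (edgeR adjusted p = 0.000300). With the summed counts of the heavy-strand mRNAs as library size in the same fit, mt-Nd6 was 13.2-fold higher in knockouts (log2 fold change 3.72 ± 0.24 SE, edgeR adjusted p = 1.03e-51). On that scale 99.6% of all tested genes were called higher, so the call reads mt-Nd6 against the heavy-strand mRNAs only. Against the mtDNA rRNAs, whose own log2 fold changes on the nuclear scale were -4.12 for mt-Rnr1 and -3.69 for mt-Rnr2, the log2 fold change was 2.44, and against all mtDNA counts 2.58.

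**Figure D1:**
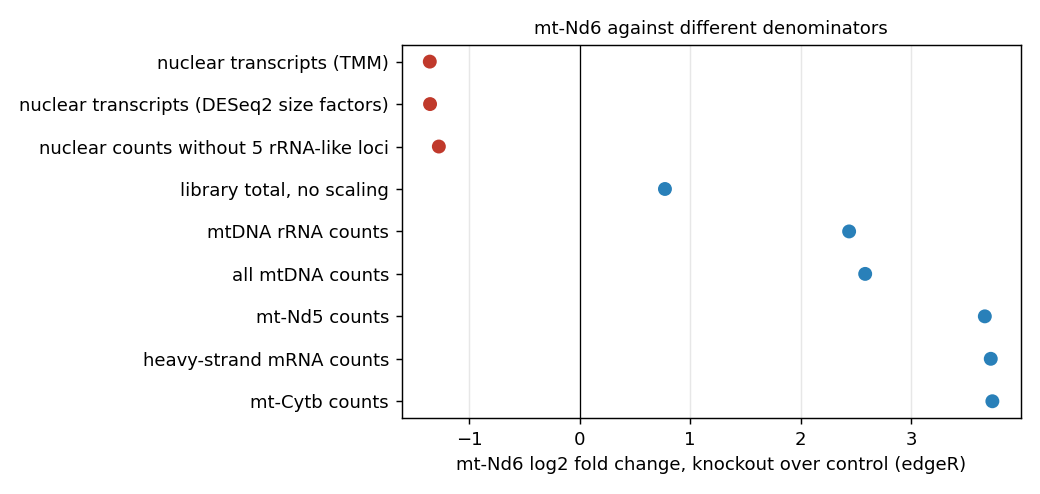
Log2 fold change of mt-Nd6, knockout over control (horizontal axis), in edgeR fits that differ in what the counts are scaled to (rows). The 3 scales set by nuclear counts give values from -1.36 to -1.28, and the scales set by mtDNA counts give values from 2.44 to 3.74, with the unscaled library total between them at 0.77.

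The share of mt-Nd6 among mtDNA mRNA counts needs no scaling. It was 3.77%, 3.25% and 4.05% in knockout libraries, against 0.286%, 0.296% and 0.287% in control libraries. The groups were far apart, and the control libraries lay close together while the knockout libraries did not: the coefficient of variation was 11.1% in knockouts and 1.98% in controls, a difference that was not tested. The mean share was 3.69% ± 0.408 in knockouts and 0.290% ± 0.00572 in controls (SD, n = 3 each; exact permutation test, 2-sided p = 0.1, the smallest that 3 against 3 can give). Within all mtDNA counts, rRNAs included, mt-Nd6 held 0.289% ± 0.0350 in knockouts and 0.0482% ± 0.00151 in controls (SD, n = 3 each, exact permutation p = 0.1).

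**Figure D2:**
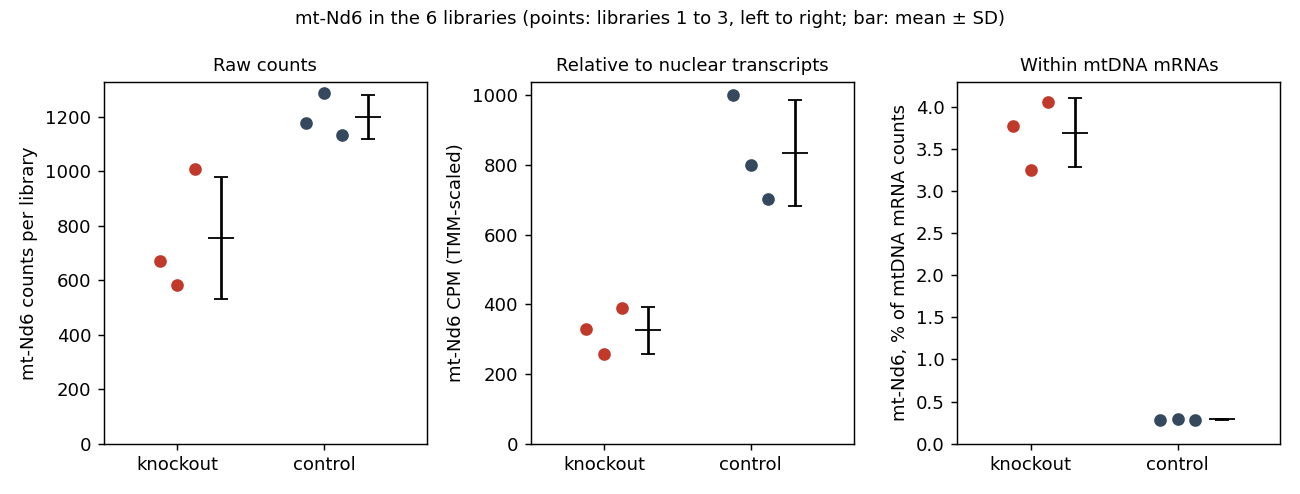
mt-Nd6 in each library (points, libraries 1 to 3 from left to right in each group; bars, mean ± SD of 3 libraries) as raw counts, as TMM-scaled CPM and as the percentage of mtDNA mRNA counts. Knockout libraries lie below the controls in the first 2 panels, at 257 to 390 CPM in knockouts against 703 to 1000.3 CPM in controls, and above them in the third, at 3.25% to 4.05% in knockouts against 0.286% to 0.296% in controls.

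mt-Nd6 is flanked by heavy-strand genes on both sides, mt-Nd5 (chrM:11742-13565), another complex I subunit, whose end it overlaps, and mt-Cytb (chrM:14145-15288), the mtDNA-encoded subunit of complex III, beyond mt-Te. There were 325, 254 and 307 counts of mt-Nd6 per 1000 counts of mt-Nd5 in knockouts, against 23.8, 23.1 and 22.8 in controls. Per 1000 counts of mt-Cytb the values were 333, 286 and 343 in knockouts and 23.6, 25.3 and 23.2 in controls. The ratio to either neighbour thus separated the groups in the same way, by 12.7 times for mt-Nd5 and 13.3 times for mt-Cytb. With mt-Nd5 as library size the edgeR log2 fold change was 3.67, and with mt-Cytb it was 3.74. No source used here states whether reads were counted by strand. Without strand, reads of mt-Nd6 and of heavy-strand RNA that runs across it cannot be told apart. The 2 strands also share the 14 bases printed in capitals.

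Per length, mt-Nd6 was the lowest mtDNA mRNA row in controls and stood among the others in knockouts. It had 1291, 1125 and 1942 counts per kb in knockout libraries, against 2268, 2484 and 2185 counts per kb in control libraries. In controls all 10 heavy-strand mRNA rows were above it in every library, the nearest being mt-Nd3, a complex I subunit, at 7073 ± 1037 counts per kb (SD, n = 3). In knockouts mt-Nd6 ranked 6, 9 and 6 among the 11 mRNA rows in libraries 1, 2 and 3. mt-Nd5 had 1129, 1260 and 1800.4 counts per kb in those knockout libraries, so that mt-Nd6 was above it in knockouts 1 and 3 and below it in knockout 2. In controls mt-Nd5 had 28318 ± 1950 counts per kb and mt-Nd6 2312 ± 154 (SD, n = 3). These are raw counts per kb, to be compared between genes of the same library.

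**Figure D3:**
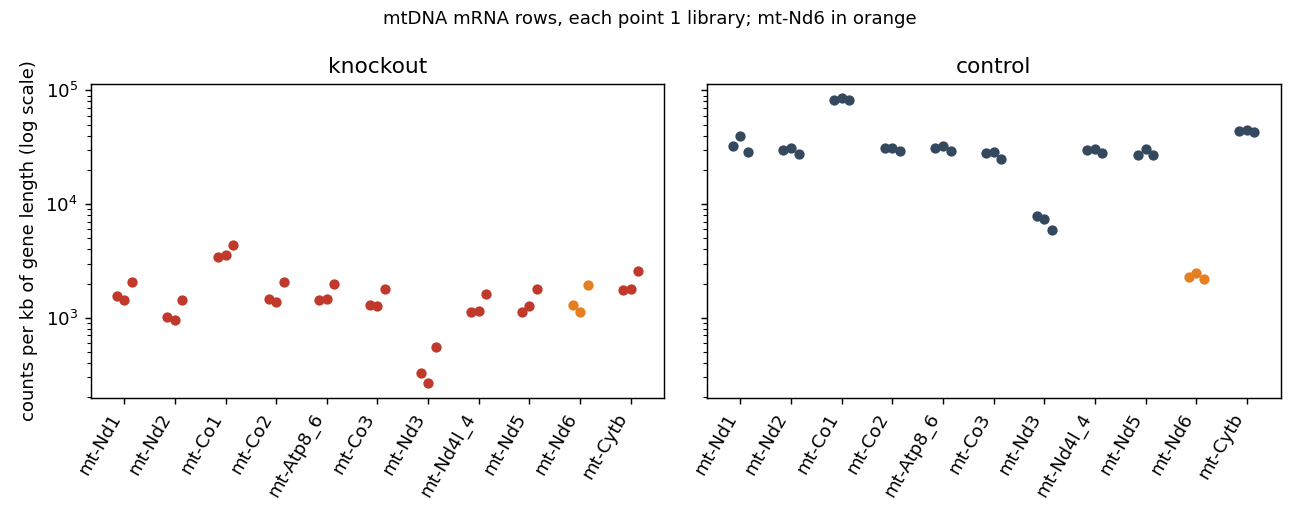
Raw counts per kb of gene length (logarithmic axis) of the 11 mtDNA mRNA rows in knockout and control libraries, each point 1 library and mt-Nd6 in orange. mt-Nd6 is the lowest row in the controls, at 2185 to 2484 counts per kb, and lies among the heavy-strand rows in the knockouts, at 1125 to 1942 counts per kb.

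The authors' own values for mt-Nd6 run the same way as the nuclear scale. The authors' normalised values were 529, 442 and 516 in knockouts and 1626, 1184 and 1129 in controls. The authors' deposited table gives mt-Nd6 a log2 fold change of -1.40 (2.64-fold lower) with a false discovery rate of 1.74e-12. That table lists 6319 genes, 0 of them light-strand tRNAs. A nuclear gene entry, Gm11408, is 93.6% identical to mt-Nd6 over all 519 bases. It had 0 counts in knockout and in control libraries.

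The light-strand tRNAs had few counts, and in no knockout library did any of them reach 3. mt-Tp and mt-Tn, the pair for which ratios are given, reached that level in controls only, so that choice itself favours a lower value in knockouts. None passed the low-count filter of the fit, so their values are given as counts and as ratios with exact 95% Poisson intervals, which cover counting error only. A count of 3 corresponds to 1.16 to 1.47 CPM in knockout libraries and to 1.86 to 2.55 CPM in control libraries. A gene below that level in both groups gives no fold change at this depth.

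mt-Tp, the proline tRNA nearest to the promoter, had 2, 2 and 2 counts in knockouts, against 8, 7 and 9 counts in controls. The groups did not overlap, but the share of genes without overlap among those with so few counts was not computed. Pooled and scaled to nuclear transcripts, it was 6.27-fold lower (95% Poisson interval 2.50 to 18.8). With no low-count filter edgeR gave a log2 fold change of -2.44 ± 0.63 SE with an adjusted p of 0.00859. In that fit 0.822% of 14236 genes were called lower.

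mt-Tn, the asparagine tRNA of the distant cluster, had 2, 1 and 0 counts in knockouts, against 12, 8 and 4 counts in controls. Every knockout library was again below every control library, and control 3 was the lowest control. How often genes with so few counts separate in this way was not computed. The pooled ratio was 12.5-fold lower (95% Poisson interval 3.81 to 65.1), and with no low-count filter the log2 fold change was -3.35 ± 0.73 SE (edgeR adjusted p = 0.000498). A stretch of 71 bases in transcripts of the nuclear gene Cep295 is 91.5% identical to mt-Tn. Cep295 had 6 counts in knockouts and 10 in controls.

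The remaining members were at or under 3 counts in each group. mt-Tc, the cysteine tRNA, had 1, 0 and 0 counts in knockouts and 0, 1 and 2 in controls. mt-Ts1, a serine tRNA whose last 3 bases lie opposite the end of mt-Co1, had 0 counts in knockouts and 1, 0 and 1 in controls. mt-Te, the glutamate tRNA, had 0 counts in knockouts and 0, 1 and 0 in controls. The edgeR adjusted p of these genes with no low-count filter was between 0.714 and 0.744. The tRNAs for tyrosine (mt-Ty), alanine (mt-Ta) and glutamine (mt-Tq) had 0 counts in each library, which allows up to 3 counts, or 1.16 to 2.55 CPM, in a library.

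**Figure D4:**
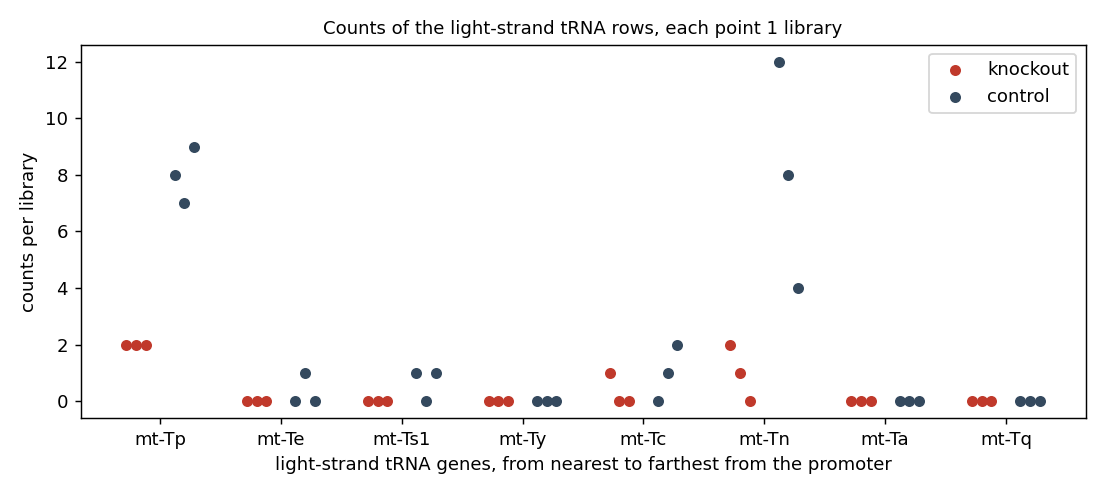
Counts per library (vertical axis) of the 8 light-strand tRNA genes, ordered from nearest to farthest from the promoter, with knockout points to the left of control points. mt-Tp has 2 counts in each knockout and 7 to 9 in controls, mt-Tn 0 to 2 in knockouts and 4 to 12 in controls, and no other row exceeds 2 counts in a library.

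Within the controls the order of levels per length was mt-Nd6, at 2312 ± 154 counts per kb, then mt-Tp at 119 ± 14.9 and mt-Tn at 113 ± 56.3, which did not differ beyond their spread (SD, n = 3). mt-Tc (15.2 ± 15.2), mt-Ts1 (9.66 ± 8.37) and mt-Te (4.83 ± 8.37) followed and overlapped one another. In knockouts mt-Nd6 had 1453 ± 432 counts per kb, mt-Tp 29.9 in each library and mt-Tn 14.1 ± 14.1 (SD, n = 3). mt-Te directly adjoins mt-Nd6 and was far below it per length. Gene counts do not tell a mature tRNA from a longer RNA that spans it, and short RNAs are counted only if the library preparation keeps them, so these rows need not measure tRNA levels.

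Distance from the promoter could be compared for mt-Tp, mt-Nd6 and mt-Tn only. On the nuclear scale the log2 ratio was -2.65 for mt-Tp (95% Poisson interval -4.23 to -1.32) at the start of the transcript. It was -1.36 ± 0.15 (SE) for mt-Nd6, which begins at 1352 bases, and -3.65 (95% Poisson interval -6.02 to -1.93) for mt-Tn, which begins at 10263 bases. The intervals of mt-Tp and mt-Tn overlap over most of their width. The ratio of mt-Tn to mt-Tp counts, knockout over control, was 0.500 with a 95% interval from 0.0733 to 2.71, so a difference between the near and the far end was not detectable at this depth. The ratio of mt-Tp to mt-Nd6 counts, knockout over control, was 0.398 with a 95% interval from 0.133 to 1.001, which also includes no difference, so the order of mt-Tp and mt-Nd6 was not resolved. The other members gave no ratio, so no ratio bears on the 6613 bases between mt-Nd6 and mt-Ts1.

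**Figure D5:**
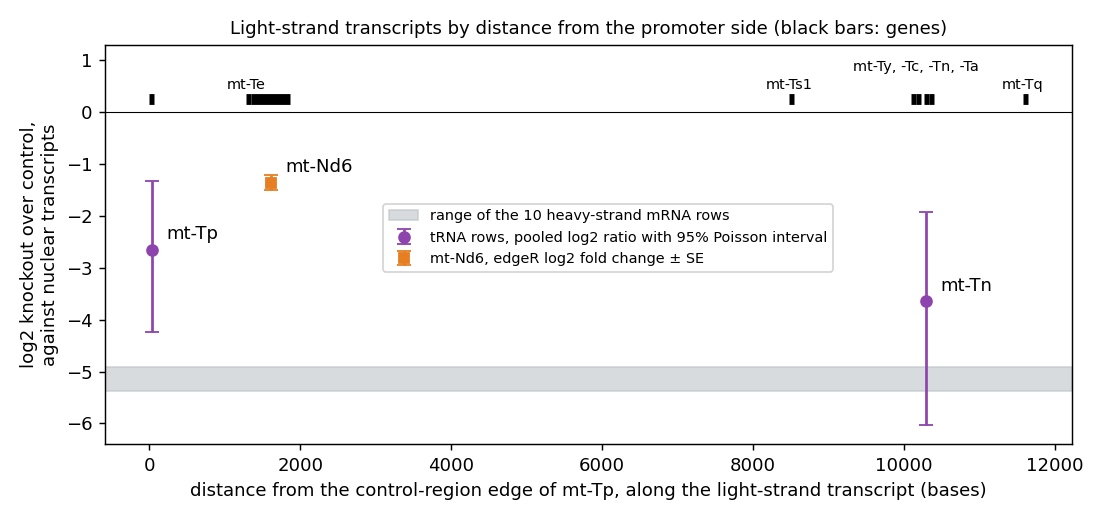
Log2 ratio of knockout to control on the nuclear scale (vertical axis) for mt-Tp, mt-Nd6 and mt-Tn against distance in bases from the control-region edge of mt-Tp, with black bars for all 9 light-strand genes. mt-Nd6 at -1.36 (± SE) is above mt-Tp at -2.65 and mt-Tn at -3.65 (95% Poisson intervals), and the grey band marks the 10 heavy-strand mRNA rows from -5.38 to -4.91.

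The light-strand tRNAs were lower relative to mt-Nd6, which comes from the same promoter. Together they had 5, 3 and 2 counts in knockout libraries, against 21, 17 and 16 counts in control libraries. Per 1000 counts of mt-Nd6 these were 7.46, 5.14 and 1.98 in knockouts and 17.8, 13.2 and 14.1 in controls. The groups did not overlap, and knockout 3, which had the most mt-Nd6 counts of the knockouts, had the lowest value. The pooled ratio of tRNA to mt-Nd6 counts was 3.39-fold lower in knockouts (95% interval 1.71 to 7.49, counting error only). For mt-Tp alone it was 2.51-fold lower (95% interval 0.999 to 7.53) and for mt-Tn alone 5.03-fold lower (95% interval 1.52 to 26.1). No test over libraries was made of these sums, and how often ratios of so few counts separate the groups was not computed.

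Light-strand tRNAs made up 11.9%, 5.66% and 5.88% of all mtDNA tRNA counts in knockouts and 2.44%, 1.81% and 2.73% in controls. The pooled ratio of light-strand to heavy-strand tRNA counts was 3.63 times higher in knockouts (95% interval 1.61 to 7.42). Most heavy-strand tRNA counts were those of mt-Tm, the methionine tRNA, with 69 of 119 counts in knockouts and 1330 of 2332 in controls. Ratios were formed for the 7 heavy-strand tRNAs with counts in both groups and over 3 in a group, and ran from 5.10-fold to 84.0-fold lower. mt-Td, with 0 counts in knockouts and 6 in controls, gave no ratio and is not in that range. mt-Tt, the threonine tRNA that directly adjoins mt-Tp on the other strand, had 1, 2 and 1 counts in knockouts and 2, 3 and 8 in controls, a pooled ratio 5.10-fold lower (95% Poisson interval 1.57 to 21.5). mt-Th, the histidine tRNA, was 6.80-fold lower (95% Poisson interval 1.87 to 37.2) and mt-Tv, the valine tRNA between the rRNAs, 13.9-fold lower (9.06 to 22.1). mt-Tm was 30.2-fold lower (23.7 to 39.1), mt-Tw, the tryptophan tRNA, 40.3-fold (20.8 to 89.2), mt-Tl1, a leucine tRNA, 64.3-fold (10.9 to 2601) and mt-Ti, the isoleucine tRNA, 84.0-fold (43.9 to 185). The intervals of mt-Tm, mt-Tw and mt-Ti lie above that of mt-Tp (2.50 to 18.8), and those of mt-Tt, mt-Th, mt-Tv and mt-Tl1 overlap it. The interval of mt-Tn (3.81 to 65.1) overlaps those of all 7. Relative to the heavy-strand mRNAs, mt-Tp was 5.31 times higher in knockouts (95% interval 1.77 to 13.3) and mt-Tn 2.65 times higher (0.511 to 8.73).

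Nuclear genes whose levels over the 6 libraries were most like those of mt-Nd6 included Pink1, Mcam, Ctnnb1 and Trabd2b, among 1621 genes of at least median expression. Pearson's r of log2 CPM was 0.996 for Pink1, a kinase of mitochondrial quality control, and 0.995 for Mcam, a cell adhesion molecule. It was 0.990 for Ctnnb1, which encodes beta-catenin, and 0.987 for Trabd2b. The points share their libraries and the difference between the groups, and all 10 heavy-strand mRNAs had an r between 0.961 and 0.984. Pink1 was at 10.7 ± 2.21 CPM in knockouts and 32.7 ± 6.53 CPM in controls (SD, n = 3 each), and Mcam at 4.72 ± 0.959 CPM in knockouts and 11.1 ± 1.73 CPM in controls. Pink1, Mcam and Trabd2b passed the edgeR test, whereas Ctnnb1 (adjusted p = 0.449) did not. Choosing genes by their likeness to mt-Nd6 over the same libraries favours such calls, so they add no support. Of all 3363 genes tested, 6.78% were called lower.

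Nuclear genes that act on these transcripts were mostly too low to be tested in RNA of a mitochondrial preparation. Of 22 genes of mtDNA transcription and replication, 2 were tested and 0 passed, also at an unadjusted p under 0.05 and with DESeq2. Over all 3363 genes tested, 13.4% were called in either direction, so 0 of 2 says nothing of the list. Mrpl12, a protein of the mitochondrial ribosome, had 7.06 ± 2.71 CPM in knockouts and 6.27 ± 1.72 CPM in controls, and Polg, the catalytic subunit of the mtDNA polymerase, 5.48 ± 1.74 CPM in knockouts and 4.52 ± 0.385 CPM in controls (SD, n = 3 each). Tfam, Tfb2m and Tefm, which act with Polrmt at the promoters and in elongation, were among the genes not tested. Of the 22 genes of RNA processing and stability, 21 were found by symbol and 6 were tested, of which 0 passed, also at an unadjusted p under 0.05 and with DESeq2. Beside the 13.4% over all tested genes, 0 of these 6 says nothing of this list either.

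Among those genes, Grsf1, which binds G-rich RNA of the light strand, was at 13.6 ± 1.04 CPM in knockouts and 10.8 ± 5.02 CPM in controls. Fastk, of which a mitochondrial form is needed for mt-Nd6 mRNA, was at 5.37 ± 1.77 CPM in knockouts and 8.12 ± 4.31 CPM in controls. Lrpprc, which stabilises heavy-strand mRNAs, was at 26.2 ± 2.17 CPM in knockouts and 23.7 ± 6.24 CPM in controls (SD, n = 3 each). None of these differences passed the test (edgeR adjusted p between 0.294 and 0.672). Of 19 genes for the synthetases and modification of these tRNAs, 1 was tested and was higher, where 6.63% of all tested genes were called higher. This gene met the low-count filter in knockout libraries only, so it entered the test through the group in which it is high, and the count says nothing of the list. The filter used unscaled library totals, so it asked for fewer counts in the smaller knockout libraries. Of the other tested genes of these nuclear lists, only Lrpprc would have passed it on control libraries alone. It was Trnt1, the enzyme that adds the CCA end to tRNAs, with 6, 10 and 13 counts in knockouts, against 2, 1 and 2 counts in controls (log2 fold change 1.83 ± 0.54 SE, edgeR adjusted p = 0.0198). DESeq2 did not call it (adjusted p = 0.295). The edgeR call was also lost without knockout 2 (adjusted p = 0.0749), knockout 3 (0.122), control 1 (0.0716), control 2 (0.249) or control 3 (0.143).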

How the data were processed

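RNA of crude heart mitochondria was sequenced as paired ends on a MiSeq from miRNeasy RNA and TruSeq libraries, per the labels' protocols. HISAT 0.1.6, featureCounts 1.3.5-p4, R 3.2.0, edgeR 3.11.2 and the build GRCm38 are named in the submitters' processing notes. No source used here states the strand setting, the treatment of multiply aligned reads or the annotation release. The authors deposited raw counts per gene, in which overlapping mRNA pairs of the heavy strand share 1 row. They also deposited normalised values rounded to whole numbers, treated as a score because their method is not given. Per the file headers, the authors' table of the comparison holds log2 fold changes, p-values, false discovery rates as p-values, and a likelihood ratio score.

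The groups were compared with the quasi-likelihood F-test of edgeR (version 4.0.16, R 4.3.3, robust, no covariate) on all genes passing filterByExpr (minimum count 10, minimum total 15), with TMM scaling, which sets the bulk of nuclear transcripts to no change. The minimum count applies at the median library total, as the filter works on counts relative to each unscaled total. P-values were 2-sided and Benjamini-Hochberg adjusted over all tested genes, with a threshold of 0.05, and SEs follow from the F statistic. Ratios to mtDNA denominators used the same fit with the denominator as library size, whose own counting error is not modelled. Pooled ratios carry exact 95% conditional intervals. The totals per library and the floor of 3 counts limit precision, and intervals cover counting error only, as PCR copies cannot be recognised. Symbols, positions and sequences came from GENCODE M21, in which 1572 identifiers of the 39177 in the files had no symbol; near-identical copies were sought with blastn (at least 90% identity over 50 bases). DESeq2 1.42.0, other scalings, no filter, a replicate block and each library left out were alternatives. The fit was tested on simulated data.

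Named were the light-strand genes, Polrmt, the neighbours of mt-Nd6, up to 4 called genes per list by adjusted p, and the 5 genes with the highest correlation with mt-Nd6, leaving out predicted and sex-linked genes (1 of the 5 is not reported here); other genes named were chosen after their values were seen. Members and lists were chosen with earlier results of these data known. Same-numbered libraries did not deviate together (r between -0.02 and 0.02), so the numbers were not taken to pair them. Replicates differed by more than sampling noise (the chi-square divided by its degrees of freedom was 1.30 to 6.26), so none was treated as a duplicate.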

Additional observations from a re-analysis of the deposited data

How the results depend on the processing

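mt-Nd6 stayed lower than nuclear transcripts under 12 of 13 alternatives, with a log2 fold change between -1.50 and -1.21 without any 1 library, and reversed to 0.77 with no scaling beyond the library total. Its rise against heavy-strand mRNAs kept direction and call under all 12 alternatives run (3.65 to 3.81 without any 1 library), and its share of mtDNA mRNA counts was higher in knockouts by 3.22 to 3.62 percentage points without any 1 library. The number of light-strand genes called lower was 1, with 3 when no low-count filter was used, 0 with no scaling, and 1 without any 1 library. The log2 ratio of the light-strand tRNA sum on the nuclear scale was -3.08, between -3.58 and -2.73 without any 1 library, and -1.001 with no scaling. Against mt-Nd6 it lay between -2.26 and -1.23 and against heavy-strand tRNAs between 1.40 and 2.13 without any 1 library. With no scaling, 2 genes of mtDNA transcription and replication and 6 of RNA processing were called, all higher. That setting shifts the median of all tested genes by 2.08 on the log2 scale. No share of all genes called is given for it, so these counts are no result about the lists. Without any 1 library, the count of RNA processing genes ranged from 0 to 2, the 2 being Elac2 and Supv3l1 without knockout 1 (edgeR adjusted p = 0.0265 and 0.0393), that of transcription genes stayed at 0, and that of tRNA synthetase and modification genes ranged from 0 to 1. The last was 0 with DESeq2 and 0 with no low-count filter. Except for the construction of these alternatives (fewer libraries, more genes tested), the cause of each change was not tested.

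With the replicate number as a block, mt-Nd6 had a log2 fold change of -1.36 on the nuclear scale and 3.72 against heavy-strand mRNAs, and no call changed. Depth limits the tRNAs: of the light-strand tRNAs, only mt-Tp and mt-Tn exceeded 3 counts in a group.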
